A study of Mus musculus with 36 samples.

Results

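Hlf, Dbp and Tef encode the 3 PAR bZIP transcription factors, and the data examined here are the open chromatin regions that lie nearest to their transcription start sites (TSSs). Peaks of all 36 ATAC-seq libraries were merged wherever they overlapped by at least 1 bp, each merged region was given to the protein-coding gene with the TSS nearest to its centre, and the regions of Hlf, Dbp and Tef were kept. This gave 22 of 105005 regions: 14 for Hlf, 4 for Dbp and 4 for Tef. A region is named below by its gene and the distance of its centre from that TSS, with a minus sign for upstream. Proximity does not show that a region acts on the gene. No other protein-coding TSS lay within 141.4 kb of the TSS of Hlf, whereas the TSS of Car11 lay 5.2 kb from that of Dbp, and Tob2 was the nearest neighbour of Tef at 47.1 kb.

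PAR bZIP factors carry a domain rich in proline and acidic residues beside a basic leucine zipper, bind the D-box sequence as dimers and activate transcription, and NFIL3 (E4BP4) is a repressor that competes for the same sites. Dbp and Tef are output genes of the circadian clock in many tissues: CLOCK and BMAL1 (encoded by Arntl) bind E-boxes in Dbp and drive its daily rhythm. Hlf is best known in bone marrow, where it is among the genes most restricted to hematopoietic stem cells (HSCs) and supports their quiescence and maintenance, and where its fusion with TCF3 causes an aggressive leukemia.

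Chromatin accessibility was profiled in 8 fractions of bone marrow from C57BL/6 mice, young (10 weeks) or aged (20 months). All fractions were lineage-negative. HSCs were sorted as Sca-1+ c-kit+ cells that were CD34- CD150+ CD48- Flt3-. Among multipotent progenitors (MPPs), also Sca-1+ c-kit+ but CD34+, MPP1 was CD150+ CD48- Flt3-, MPP2 CD150+ CD48+ Flt3-, MPP3 CD150- CD48+ Flt3- and MPP4 CD150- CD48+ Flt3+. Granulocyte-macrophage progenitors (GMPs) were Sca-1- c-kit+ FcgR+ CD34+, megakaryocyte-erythrocyte progenitors (MEPs) Sca-1- c-kit+ FcgR- CD34-, and common lymphoid progenitors (CLPs) were low for Sca-1 and c-kit and positive for what the labels write as IL-7. HSCs had 4 libraries at each age and every other fraction had 2, from 20000 sorted cells per library. Marrow of female mice was pooled before sorting, so libraries of a group may share a pool and p-values measure only the spread between libraries. The hour at which marrow was taken is not given in the sources used here.

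A library listed between 9581 and 63288 peaks: 27856 to 38756 in HSCs, 52576 to 63288 in GMPs, 9581 to 11041 in MEPs and 27117 to 34205 in CLPs. The narrowest peak of a GMP library was 132 to 139 bp wide, against 163 to 191 bp in the other fractions. Fitted differences of GMPs, and of MEP sums, therefore stand below beside the shift of all regions or genes. MEP values of single regions are given without such a shift. The part of peak number and width in the differences was not tested. The TSS regions of the GMP markers Mpo and Elane were called in 4 of 4 GMP libraries and in none of the 8 HSC libraries. The third GMP marker, Cebpe, was called in 3 of 4 GMP libraries and no HSC library. For the markers of MEPs the nearest regions lay at -3637 bp from the TSS of Gata1, 1392 bp of Klf1 and 871 bp of Epor, and were called in 1, 1 and 4 of the 4 libraries labelled MEP, so no Gata1 or Klf1 promoter could be checked and the name is used only as a label. The Klf1 region was called in every library of the other 7 fractions and the Epor region in all of these but 1 CLP library, whereas the Gata1 region was called elsewhere only in 3 MPP2 libraries. Of the CLP markers, Il7r had its TSS region called in 4 of 4 CLP libraries, but also in 4 of 4 GMP and 4 of 4 MPP4 libraries, the nearest regions of Dntt (1877 bp) and Ebf1 (-118 bp) were each called in 3 of 4 CLP but 8 of 8 HSC libraries, and Rag1 had no region. In HSCs the TSS region of Meis1 was called in 8 of 8 libraries, that of Procr in 4, that of Hoxa9 in 3 and that of Mecom in none, against 4, 3, 4 and 3 of the 4 GMP libraries.

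Peaks were called in all 36 libraries at 2 of the 22 regions, both at Tef promoters, and in more than 18 libraries at 6 regions: Hlf -27.2 kb (34), Hlf -7 bp (33), Dbp -81 bp (34), Tef -226 bp (36), Tef +148 bp (36) and Tef +20.2 kb (29). A further 9 regions were called in 3 or fewer libraries and 4 in a single one. In the whole catalogue 5.08% of regions were called in all libraries, 25.2% in more than 18, 35.4% in 3 or fewer and 18.4% in 1, so these counts are read as a description of the members. The values are fold enrichments, which MACS2 gives as the height of the highest summit over the local background. A region without a peak has no value, which is not a zero.

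**Figure D1:**
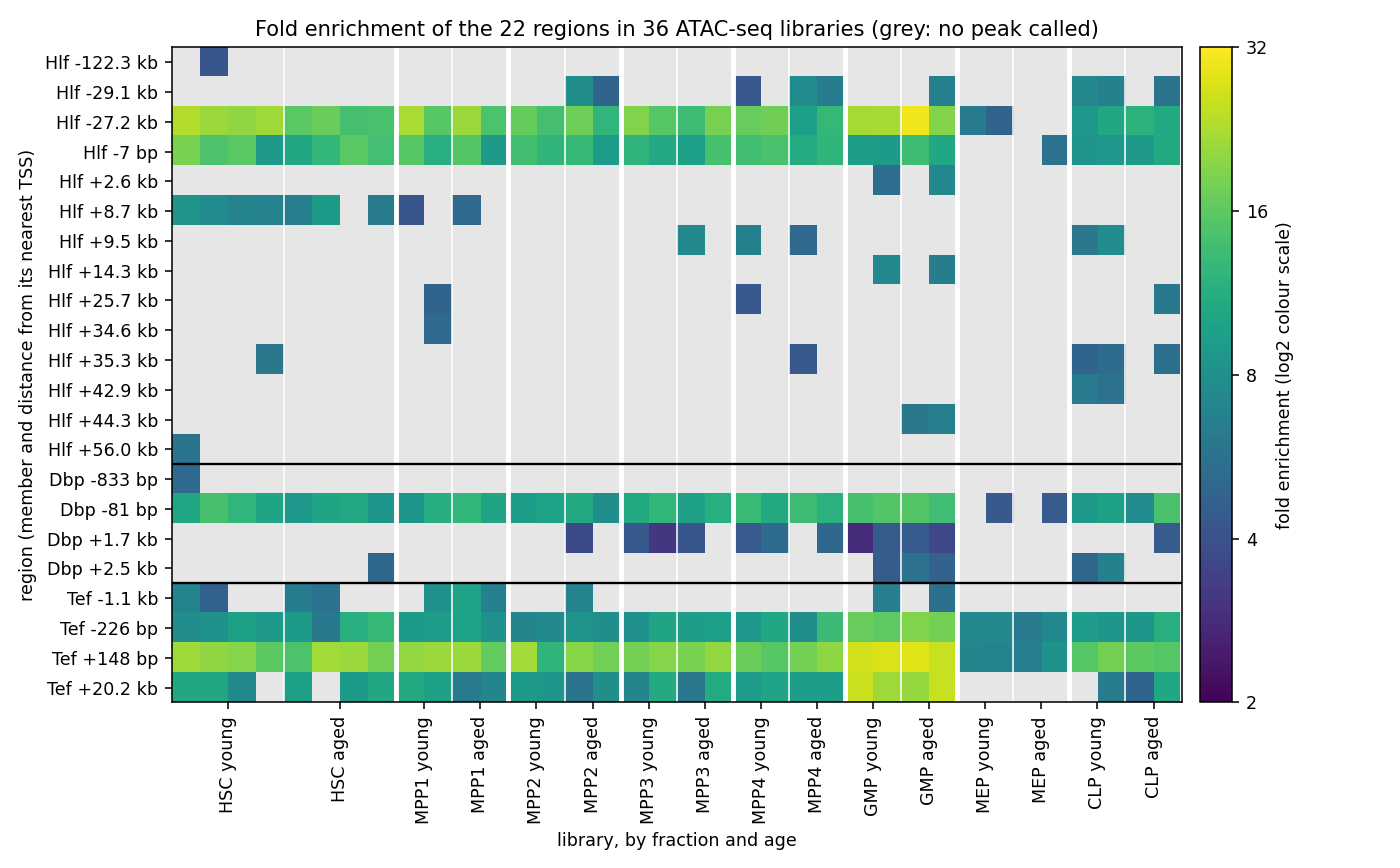
Fold enrichment (colour, log2 scale) of each of the 22 regions (rows, by distance from the nearest TSS) in each of 36 libraries (columns, grouped by fraction and age), with grey where no peak was called. Tef -226 bp and Tef +148 bp are called in all 36 libraries, Hlf -27.2 kb in 34, and Hlf +8.7 kb in 7 of 8 HSC libraries, 2 MPP1 libraries and no other.

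The sequences of 7 regions that the results turn on are given from the RefSeq assembly GRCm38.p6, the same build as mm10, each 201 bases long, 5′ to 3′ on the strand of its gene. Capitals mark matches to the motifs searched on both strands. The distal Hlf region and the Hlf promoter come first, followed by the intronic Hlf region found in HSCs:

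Hlf -27.2 kb: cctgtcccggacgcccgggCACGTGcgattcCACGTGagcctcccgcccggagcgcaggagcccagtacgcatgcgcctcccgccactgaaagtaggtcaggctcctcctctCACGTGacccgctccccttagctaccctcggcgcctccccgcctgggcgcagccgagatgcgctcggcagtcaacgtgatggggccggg
Hlf -7 bp: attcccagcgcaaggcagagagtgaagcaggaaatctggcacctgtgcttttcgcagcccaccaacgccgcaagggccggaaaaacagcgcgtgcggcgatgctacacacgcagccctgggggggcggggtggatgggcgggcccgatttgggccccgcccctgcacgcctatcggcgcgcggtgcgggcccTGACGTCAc
Hlf +8.7 kb: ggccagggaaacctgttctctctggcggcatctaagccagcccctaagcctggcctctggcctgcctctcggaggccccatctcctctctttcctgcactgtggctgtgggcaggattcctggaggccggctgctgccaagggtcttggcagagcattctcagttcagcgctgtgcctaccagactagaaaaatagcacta

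These windows lie on the minus strand at chr11:90418028-90418228, chr11:90390918-90391118 and chr11:90382096-90382296. The Dbp promoter, an intronic Dbp region and the promoter and distal region of Tef are on the plus strand, at chr7:45704813-45705013, chr7:45707679-45707879, chr15:81810842-81811042 and chr15:81831522-81831722:

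Dbp -81 bp: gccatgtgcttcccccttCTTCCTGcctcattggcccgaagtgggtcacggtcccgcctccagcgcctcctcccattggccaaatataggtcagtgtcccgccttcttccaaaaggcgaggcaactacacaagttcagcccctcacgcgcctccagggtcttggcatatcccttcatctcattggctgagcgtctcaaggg
Dbp +2.5 kb: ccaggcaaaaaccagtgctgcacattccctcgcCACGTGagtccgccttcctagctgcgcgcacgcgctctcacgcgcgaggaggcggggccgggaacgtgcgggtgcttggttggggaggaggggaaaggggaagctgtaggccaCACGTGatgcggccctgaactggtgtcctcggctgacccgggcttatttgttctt
Tef -226 bp: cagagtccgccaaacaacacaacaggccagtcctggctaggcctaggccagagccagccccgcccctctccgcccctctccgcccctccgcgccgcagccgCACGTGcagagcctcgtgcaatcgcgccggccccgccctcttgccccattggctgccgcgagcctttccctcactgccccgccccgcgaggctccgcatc
Tef +20.2 kb: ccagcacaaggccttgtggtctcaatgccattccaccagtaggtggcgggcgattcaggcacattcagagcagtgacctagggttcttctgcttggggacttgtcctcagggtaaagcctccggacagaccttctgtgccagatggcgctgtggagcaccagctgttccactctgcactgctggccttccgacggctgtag

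Annotated untranslated bases were left out of these stretches, which moved the printed part of Tef -226 bp upstream of its summit and that of Hlf -7 bp upstream of the TSS. Matches were counted in a window of 201 bp around the median summit of every region. The E-box CACGTG, the site of CLOCK and BMAL1 and of other bHLH factors, occurred 3 times in Hlf -27.2 kb, at 15 bp to the lower-coordinate side and 66 and 78 bp to the higher-coordinate side of the summit. Among 104825 regions, 4595 (4.38%) held at least 1 E-box, 187 (0.178%) at least 2 and only 14 (0.0134%) at least 3. Dbp +2.5 kb held 2 E-boxes, and Tef +148 bp and Tef -226 bp held 1 each. The E-box in the printed stretch of Tef -226 bp lies upstream of its counting window and is a further match, and the one counted there is at chr15:81811276-81811281. Hlf -27.2 kb was also rich in GC, at 71.1% with 23 CpG dinucleotides, which placed it at the 95.2 percentile of all regions for GC, at 27154 bp from the nearest protein-coding TSS. The Hlf promoter window had a GC content of 70.6%.

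The cyclic AMP response element TGACGTCA, the site of CREB and ATF factors, was present in the Hlf promoter and in 0.732% of all regions and 2.43% of those at promoters. The D-box (TTACGTAA or TTATGTAA), to which the PAR bZIP proteins themselves bind, was in none of the 22 windows and in 1.28% of all regions. ETS matches (CAGGAAG or CCGGAAG, 21.5% of all regions) were found in Dbp -81 bp, Hlf +2.6 kb, Hlf +14.3 kb and Hlf +56.0 kb. RUNX matches (TGTGGTT, 11.3%) were found in Hlf +35.3 kb and Tef -1.1 kb, and a GATA match (AGATAA, 10.3%) in Tef +148 bp. No match to HOX (TGATTTAT, 0.881%) or CEBP (TTGCGCAA or TTGCATCA, 1.38%) was found in the 22 windows. Hlf +8.7 kb and Tef +20.2 kb held none of the motifs searched. No matches in these windows overlapped each other. Matches describe the letters only.

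Hlf -27.2 kb (chr11:90417765-90418333) had the highest fold enrichment of the Hlf regions in every HSC library other than aged replicate 3. It is intergenic, with no GENCODE or RefSeq gene over it. Fold enrichment in the 4 young HSC libraries was 23.1, 21.1, 20.2 and 21.5, which placed it between the 98.2 and 99.4 percentile of the peaks of its library. In the 4 aged HSC libraries it was 15.7, 16.9, 14.2 and 14.5, between the 85.3 and 95.4 percentile. Every aged HSC library was below every young one, with means of 15.3 ± 1.25 (SD, n = 4) and 21.5 ± 1.24 (SD, n = 4). Aged values lay entirely below young values at 2.09% of the 17340 regions called in all 8 HSC libraries. The difference in log2 fold enrichment was -0.49 with an SE of 0.12, a change of -28.8%, and an exact two-sided permutation test gave p = 0.0286, the smallest value that 4 libraries against 4 can reach. It did not pass the test across regions (limma, Benjamini-Hochberg adjusted p = 0.240 over 17340 regions), in which 0.0115% of regions did, and 1305 regions had an unadjusted p below 0.05. In the bulk libraries, fewer cells with an open site and a less open site in every cell cannot be told apart.

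HSC libraries were also split into 2 sets by replicate number, which the labels do not describe as batches. The age difference at Hlf -27.2 kb was similar in both sets, -0.44 in log2 fold enrichment for replicates 1 and 2 and -0.54 for replicates 3 and 4. Outside HSCs its size and sign varied. In MPP4 the young libraries gave 16.7 and 17.5 and the aged ones 9.52 and 12.7, a log2 difference of -0.64 with no overlap, as at 30.8% of the 23464 regions called in all MPP4 libraries. In CLPs both aged values were above the young ones, at 8.73 and 10.5 in young and 11.9 and 10.7 in aged libraries (log2 difference 0.24), as at 17.9% of 21315 regions. MPP1 (-0.10), MPP2 (-0.07), MPP3 (-0.13) and GMPs (0.12) had overlapping ages. With 2 libraries per age these fractions allow no test that reaches the threshold by permutation. Over the 6 fractions other than HSCs and MEPs, a fit chosen after the data were seen gave a log2 age difference of -0.10 with an SE of 0.10 (limma, adjusted p = 0.996).

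Across fractions, Hlf -27.2 kb was called in every library other than the 2 aged MEP libraries. Fold enrichment was 22.1 and 22.2 in young and 30.01 and 19.2 in aged GMPs. It ranged from 14.5 to 22.6 in MPP1, from 12.4 to 17.3 in MPP2, from 13.3 to 18.9 in MPP3 and from 9.52 to 17.5 in MPP4. CLP values, between 8.73 and 11.9, were all below those of every HSC library, and the young MEP libraries gave 6.29 and 4.84. Comparisons of single regions between fractions were added after the data were seen, on regions called in all libraries of both fractions. The log2 difference of CLPs from HSCs was -0.80 with an SE of 0.11 (limma, Benjamini-Hochberg adjusted p = 2.18e-05), and 10.3% of 12325 regions were called lower. In MPPs, where 11.8% of 13465 regions were called in either direction, the log2 difference from HSCs was -0.21 (limma, adjusted p = 0.153), and -0.25 (limma, adjusted p = 0.0342) with each library centred on its median.

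GMP values have to be read against a general shift: the median region was 0.53 higher in GMPs than in HSCs on the log2 scale, and 67.4% of 13884 regions were called higher. Hlf -27.2 kb was 0.35 higher on that scale (SE 0.11, limma adjusted p = 0.00719), less than the median region, and this was lost without aged GMP replicate 1 (0.19, limma adjusted p = 0.148). With libraries centred its difference was -0.22 (limma adjusted p = 0.0915). Of all regions called in that comparison, 92.0% were higher in GMPs with the values as deposited and 44.5% with libraries centred.

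The Hlf promoter region Hlf -7 bp (chr11:90390659-90391144) spans the only protein-coding TSS of the gene and was called in all libraries of HSCs, MPPs, GMPs and CLPs, and in 1 of 4 MEP libraries. Young HSC libraries gave 18.4, 14.8, 15.7 and 8.996, and aged ones 10.5, 12.5, 15.8 and 13.99. The ages overlapped, with a log2 difference of -0.10 (SE 0.20, limma adjusted p = 0.955; exact permutation p = 0.714). Its sign differed between the sets of HSC libraries, at -0.52 for replicates 1 and 2 and 0.32 for replicates 3 and 4. In GMPs the promoter gave 9.35 and 9.05 in young and 13.5 and 10.4 in aged libraries, and the 4 CLP values lay between 8.402 and 10.7.

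Against HSCs, the log2 level of the Hlf promoter differed by -0.56 in CLPs (SE 0.16, limma adjusted p = 0.0180). That call was lost without young CLP replicate 1 (adjusted p = 0.0680), young CLP replicate 2 (0.0549) or aged CLP replicate 1 (0.0834) in the limma fit. In GMPs the difference was -0.37 (SE 0.17, limma adjusted p = 0.0511), opposite in sign to that of the median region, and it passed the threshold without young HSC replicate 4 (-0.48, limma adjusted p = 0.00537), aged HSC replicate 1 (-0.42, 0.0291) or aged GMP replicate 1 (-0.47, 0.0421). With libraries centred it was -0.94 (SE 0.15, limma adjusted p = 3.24e-05), and 28.3% of regions were then called lower in GMPs. Of the 5 member regions called in all HSC and GMP libraries, the Hlf promoter was the only one below HSCs as deposited.

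**Figure D2:**
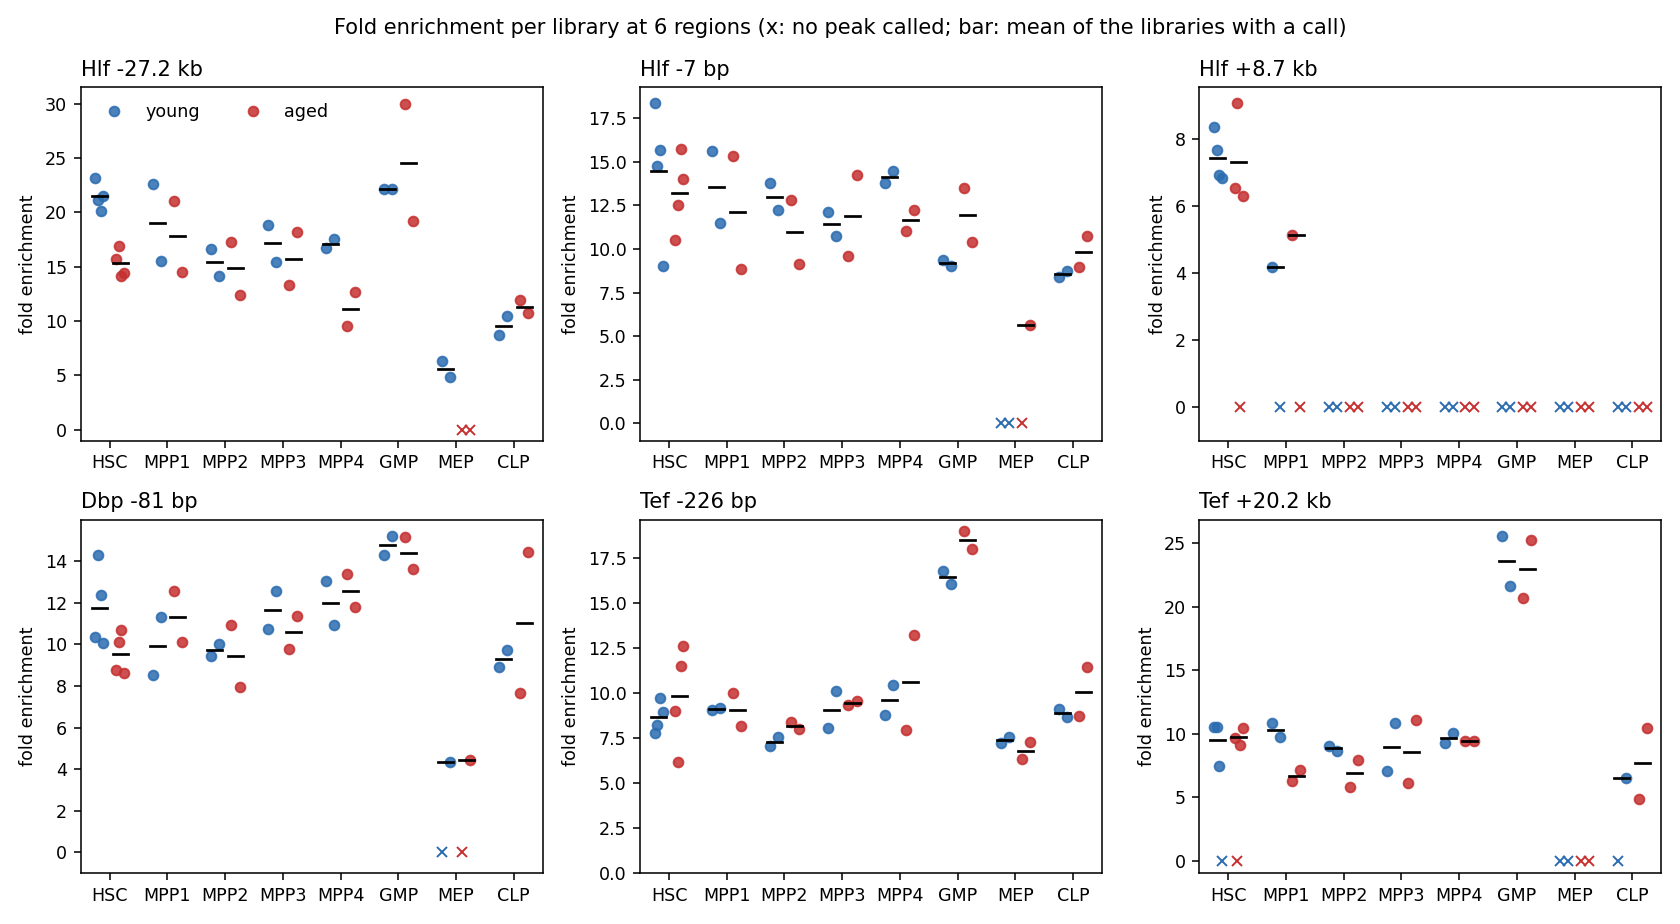
Fold enrichment (vertical axes, each with its own range) per library at 6 regions, by fraction, with young libraries in blue and aged ones in red. Crosses at 0 stand for libraries without a peak and bars for the mean of libraries with a call. At Hlf -27.2 kb the aged HSC libraries (14.2 to 16.9) all sit below the young ones (20.2 to 23.1), Hlf +8.7 kb is called only in HSC and MPP1 libraries, and Tef +20.2 kb is highest in GMPs (20.7 to 25.5).

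Hlf +8.7 kb (chr11:90382023-90382421), in an intron of Hlf, was called almost only in HSCs. All 4 young HSC libraries had a peak, at 8.36, 7.69, 6.92 and 6.85, and 3 of the 4 aged ones did, at 6.54, 9.10 and 6.30, with none in aged HSC replicate 3. Outside HSCs it was called in 1 young MPP1 library at 4.18 and 1 aged MPP1 library at 5.14, and in no library of MPP2, MPP3, MPP4, GMPs, MEPs or CLPs. In the catalogue, 21060 regions were called in at least 7 of the 8 HSC libraries, and 225 of them (0.214% of all regions) were called in no library outside HSCs and MPP1. MPP1 libraries shared 205 of those 225. By Fisher's exact test on calls, 7 of 8 HSC libraries against 0 of 4 GMP libraries gave p = 0.0101 and a Benjamini-Hochberg adjusted p = 0.0390.

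Compared with MEPs, the same calls at Hlf +8.7 kb gave an adjusted p of 0.0460 (Fisher's exact test), and the call was lost with age as a stratum, with stricter peaks, with peaks covering at least 50% of the region and without any 1 library of HSCs or MEPs other than aged HSC replicate 3. Against CLPs the adjusted p was 0.0773 by the same exact test, and 0.0285 without aged HSC replicate 3, the library with no peak. With so few libraries the exact test is coarse: leaving out any HSC library with a peak, or any GMP library, left it short of the threshold in the GMP comparison, as did age as a stratum. Fold enrichment here stood between the 24.2 and 58.7 percentile of the peaks of its library in HSCs, above the median in 2 of the 7, and between the 1.53 and 8.61 percentile in MPP1. A missing call need not mean closed chromatin. Peak calling at a stricter limit, a -log10 q-value of at least 10, left no member region past the threshold in the GMP comparison.

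The remaining Hlf regions were called in 1 to 9 libraries, at fold enrichments between 4.19 and 7.85. Hlf -29.1 kb (chr11:90419740-90420213), upstream of the strong distal site, was called in 3 of 4 CLP libraries (7.25, 6.76 and 5.80), 3 MPP4 libraries, 2 aged MPP2 libraries and 1 aged GMP library, and in none of the 8 HSC libraries. For HSCs against CLPs this gave p = 0.0182 and an adjusted p of 0.106 by Fisher's exact test. In introns of Hlf, Hlf +9.5 kb was called in 2 CLP, 2 MPP4 and 1 MPP3 libraries, Hlf +35.3 kb in 3 CLP, 1 MPP4 and 1 young HSC libraries, Hlf +25.7 kb in 1 CLP, 1 MPP4 and 1 MPP1 libraries, and Hlf +42.9 kb in both young CLP libraries only. None of these 4 passed Fisher's exact test of HSCs against CLPs, with adjusted p of 0.314 to 0.749. The introns also held sites called in GMP libraries only, Hlf +2.6 kb, Hlf +14.3 kb and Hlf +44.3 kb, each in 2 of 4. Of all regions, 24.1% were called in GMP libraries only, counting those called in any number of them. Hlf -122.3 kb, Hlf +34.6 kb and Hlf +56.0 kb rested on a single library each.

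Calls were then tested over all regions. Between HSCs and GMPs, 2 of the 18 member regions tested passed Fisher's exact test after adjustment, Hlf +8.7 kb (more often in HSCs, as were 3.12% of regions) and Dbp +1.7 kb (more often in GMPs, as were 22.8%), against a background of 25.9% of 91636 regions. Between HSCs and MEPs 1 of 13 passed, Hlf +8.7 kb, against 22% of regions, nearly all of them (21.1% of regions) called more often in HSCs. Hlf -7 bp, at an unadjusted p of 0.0182, passed without aged MEP replicate 2 (Fisher's exact test, adjusted p = 0.0349). With stricter peaks Hlf -27.2 kb, Hlf -7 bp and Dbp -81 bp passed instead (Fisher's exact test, adjusted p = 0.0125 each). With peaks covering at least 50% of the region Hlf -27.2 kb did (Fisher's exact test, adjusted p = 0.0205). Between HSCs and CLPs none of 18 passed, against 10.1%, and 2 had an unadjusted p below 0.05 by the exact test, Hlf +8.7 kb and Hlf -29.1 kb. With age over all fractions none of 20 passed an exact test stratified by fraction, nor did any of 85292 regions (0%). The smallest adjusted p of that test was 0.235, 1169 regions had an unadjusted p below 0.05, and no member region did.

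Dbp, the classic output gene of the clock among the 3, had its main site at the promoter. Dbp -81 bp (chr7:45704644-45705369) also overlaps the transcript of Car11, a carbonic anhydrase-related gene, and its signal cannot be assigned to 1 of the genes. Young HSC libraries gave 10.3, 14.3, 12.4 and 10.1, and aged ones 8.74, 10.1, 10.7 and 8.61. Ages overlapped, and the log2 difference was -0.29 (exact permutation p = 0.143). In GMPs the values were 14.3 and 15.2 in young and 15.2 and 13.6 in aged libraries. The log2 level was 0.47 higher than in HSCs (SE 0.14, limma adjusted p = 0.00430), close to the 0.53 of the median region, and -0.10 with libraries centred. MEP libraries had a call in 2 of 4, at 4.35 and 4.44.

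Inside Dbp, the exonic region Dbp +1.7 kb (chr7:45706759-45707113) was called in 4 of 4 GMP libraries at 2.83, 4.52, 4.49 and 3.64, in 3 MPP3, 3 MPP4, 1 MPP2 and 1 CLP libraries, and in none of the 8 HSC libraries. Fisher's exact test of HSCs against GMPs gave p = 0.00202 and an adjusted p of 0.00901, a call that was lost with stricter peaks or with peaks covering at least 50% of the region. These were among the lowest peaks of their libraries, at or below the 2.69 percentile in GMPs, where the narrowest peaks also occurred. Dbp +2.5 kb (chr7:45707659-45707893), the intronic region with 2 E-boxes, was called in 3 GMP, 2 young CLP and 1 aged HSC libraries, at 4.52 to 6.76. Dbp -833 bp was called in 1 young HSC library.

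Tef has 2 groups of TSSs, both open in every library. At the upstream one, Tef +148 bp (chr15:81802255-81802882) covers the first exon with its 5′ UTR and overlaps the antisense RNA Gm17597, which ATAC-seq cannot separate from Tef. Fold enrichment was 21.5, 20.2, 19.4 and 15.9 in young HSCs and 14.7, 21.8, 21.01 and 17.96 in aged HSCs, without a separation by age (exact permutation p = 0.80). GMPs gave 25.4 to 28.04 and MEPs 6.52 to 8.19, outside the range of HSCs on either side. The log2 level in GMPs was 0.51 above HSCs (SE 0.11, limma adjusted p = 0.000287), again close to the median region, and -0.06 with libraries centred.

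The downstream promoter, Tef -226 bp (chr15:81810726-81811649), gave 7.78, 8.24, 9.70 and 8.94 in young and 9.02, 6.15, 11.5 and 12.6 in aged HSCs, with overlapping ages (exact permutation p = 0.60). Its GMP values of 16.8, 16.04, 18.95 and 17.99 were all above the HSC values. The log2 difference of 0.94 (SE 0.16, limma adjusted p = 2.91e-05) was larger than that of the median region, and 0.38 (limma adjusted p = 0.0586) remained with libraries centred. MEP libraries, at 6.31 to 7.53, were within the HSC range. That overlap rested on aged HSC replicate 2 (6.15), since the other 7 HSC libraries were above every MEP library.

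Tef +20.2 kb (chr15:81831295-81831879) is intergenic and was highest in GMPs. GMP libraries gave 25.5 and 21.6 in young and 20.7 and 25.2 in aged mice. Among HSCs 3 young libraries gave 10.5, 10.5 and 7.47 and 3 aged ones 9.67, 9.09 and 10.4, with no peak in the other two. MPP libraries all had a peak, between 5.83 and 11.03. Both aged values lay below both young ones in MPP1 (log2 difference -0.62) and MPP2 (-0.38). Ages overlapped in MPP3 (-0.10), MPP4 (-0.03) and GMPs (-0.04). The share of all regions separated in this way in MPP1 and MPP2 is not given here. Of the 4 CLP libraries 3 had one, at 4.86 to 10.5, and no MEP library did. Every GMP value was thus above every value elsewhere, which also held for 46.9% of the 34725 regions called in all GMP libraries and at least 1 other library. The region is missing from 2 HSC libraries and could not be fitted against HSCs. Tef -1.1 kb, within Tef, was called in 10 libraries at 4.73 to 9.86: 4 of HSCs, 3 of MPP1, 1 of MPP2 and 2 of GMPs.

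The signal of a gene was then summed over its regions in each library. Such a sum adds the highest fold enrichment of each called region, so it grows with peak height and with the number of regions called. Mean height per called region and covered length are given for some of the comparisons. The Hlf sum was 55.7, 47.8, 42.8 and 43.3 in the 4 young HSC libraries and 32.7, 38.5, 29.9 and 34.8 in the 4 aged ones, with means of 47.4 ± 5.98 (SD, n = 4) and 33.99 ± 3.61 (SD, n = 4). No aged library reached a young one, which held for 2.38% of 17302 genes, and an exact permutation test of the log2 difference gave p = 0.0286, the smallest possible. Hlf -122.3 kb, Hlf +35.3 kb and Hlf +56.0 kb were each called in 1 young HSC library and no aged one. They made up 8.77%, 13.8% and 10.5% of the sum in the library with the call, and the separation without them was not tested. Hlf -27.2 kb, at 41.5 to 49.6% of the sums in HSCs, is counted again here, so the sum is not a separate age result. Peaks covered 1277 bp on average in young and 990.2 bp in aged HSCs, while the mean per called region was 12.7 and 12.6. The log2 difference of -0.47 (SE 0.34) did not pass across genes (limma, adjusted p = 0.787), where 1.34% of genes did and 1808 had an unadjusted p below 0.05. It was -0.53 in replicates 1 and 2 and -0.41 in replicates 3 and 4. The SE of 0.34 pools the spread within every group, including the aged MEP libraries, where the Hlf sum was 0 and 5.67. With a pseudocount of 5 the age difference of Hlf in HSCs was -0.42 (SE 0.20, limma adjusted p = 0.413). SEs of the other sums are pooled in the same way.

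For Dbp and Tef the age differences of the sums in HSCs were -0.25 (SE 0.42) and 0.07 (SE 0.16) in log2, with limma adjusted p = 1 for both, and each changed sign between the sets of libraries (-0.61 and 0.11 for Dbp, -0.30 and 0.44 for Tef). Over all 8 fractions the age differences were -0.26 for Hlf, -0.05 for Dbp and 0.07 for Tef, none past the threshold that 1.46% of genes passed. The Hlf value depended on both aged MEP libraries. Without aged MEP replicate 2, which alone among MEP libraries had a peak at the Hlf promoter, it was -0.43 (limma adjusted p = 0.0101), and without aged MEP replicate 1, which had no Hlf peak at all, it was -0.088 (limma adjusted p = 0.867). An exact permutation of ages within fractions over all 36 libraries gave p = 0.206 for Hlf.

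**Figure D3:**
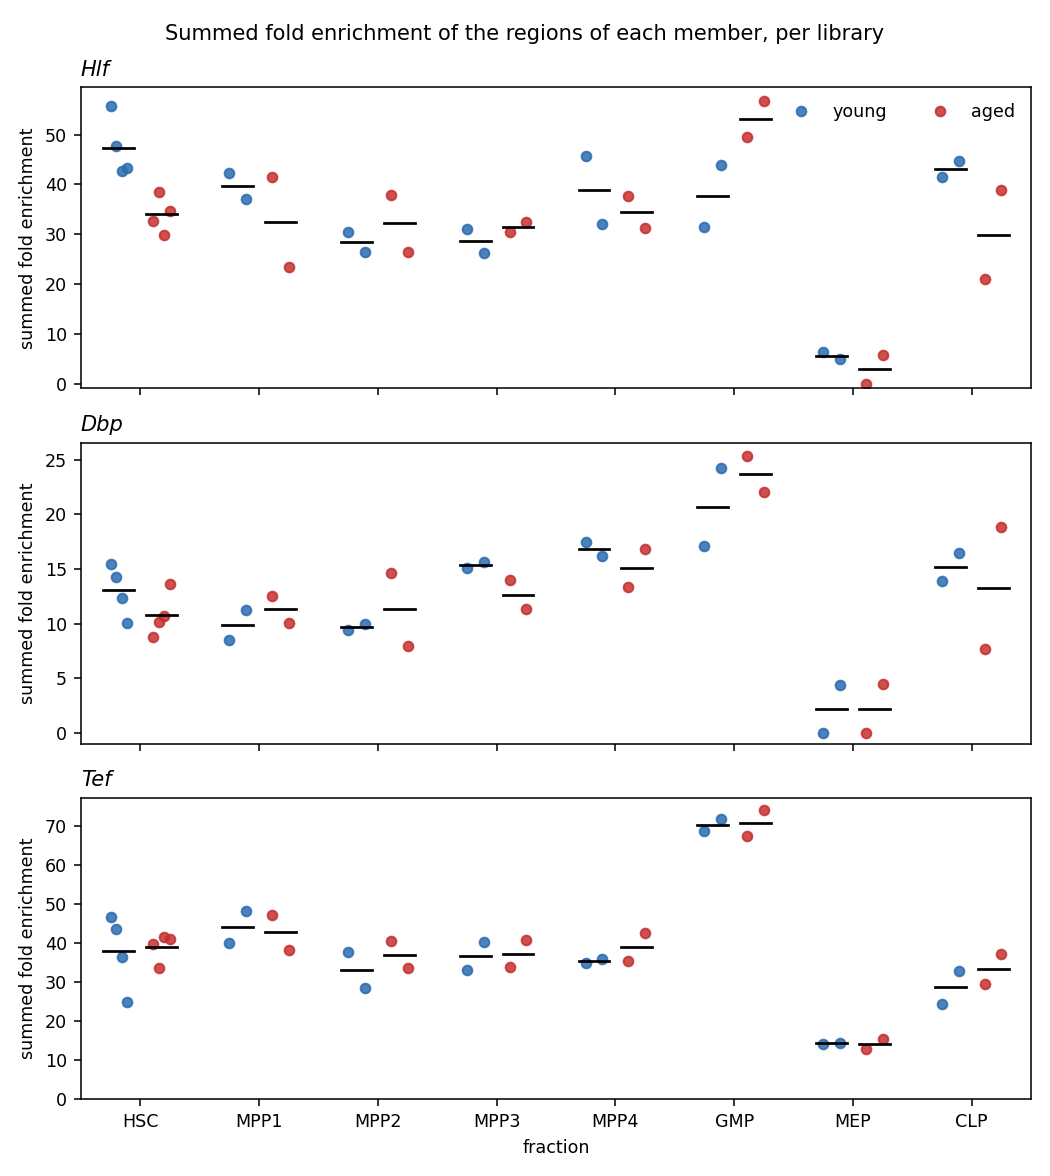
Summed fold enrichment over the regions of Hlf, Dbp and Tef (vertical axes) in each library, by fraction, young in blue and aged in red, with bars for group means. In HSCs the aged Hlf sums (29.9 to 38.5) do not reach the young ones (42.8 to 55.7), Tef sums are highest in GMPs (67.6 to 74.2), and all 3 sums are lowest in MEPs.

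Differences of the sums between fractions stand beside the shift of all genes. In GMPs the Tef sum was 67.6 to 74.2 against 24.9 to 46.8 in HSCs, a log2 difference of 0.88 (SE 0.14, limma adjusted p = 5.76e-06), and the Dbp sum was 17.1 to 25.3 against 8.74 to 15.5, a difference of 0.85 (SE 0.37, limma adjusted p = 0.0395). Both lay below the median of all genes, 1.18, and 72.3% of genes were called higher. With peaks covering at least 50% of a region both calls were lost (Tef 0.56, limma adjusted p = 0.312, and Dbp 1.22, 0.0547), as was that of Tef by the number of called regions (0.092, limma adjusted p = 0.537) and that of Dbp with the replicate block (0.84, limma adjusted p = 0.0836). The Dbp call was also lost without any 1 of 8 libraries, with adjusted p from 0.0502 to 0.134 in the limma fit: young HSC replicates 3 and 4, aged HSC replicates 1, 2 and 3, young GMP replicate 2 and both aged GMP replicates. Hlf, at 31.5 to 56.7 in GMPs and 29.9 to 55.7 in HSCs, differed by 0.15 (SE 0.30, limma adjusted p = 0.650). With libraries centred, Hlf fell by 0.82 (SE 0.28, limma adjusted p = 0.0166) while 22.6% of genes were called lower, and Dbp (-0.11) and Tef (-0.08) were near 0. Of all genes called, 92.7% were higher as deposited and 59.7% with libraries centred. Covered length averaged 487 bp in HSCs and 895 bp in GMPs for Dbp, 1339 and 1640.2 bp for Tef, and 1133.5 and 999.5 bp for Hlf. The mean per called region of Tef was 11.996 in HSCs and 20.5 in GMPs.

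In the libraries labelled MEP all 3 sums fell, with log2 differences of -3.32 for Hlf (SE 0.30), -2.45 for Dbp (SE 0.37) and -1.35 for Tef (SE 0.14), with limma adjusted p of 5.42e-10, 2.35e-06 and 5.37e-09. Hlf had no peak in 1 and Dbp in 2 of the 4 libraries, so the size of these differences depends on the pseudocount: with 5 in place of 1 they were -2.36 for Hlf and -1.29 for Dbp. The median gene fell by 1.49, and 72.2% of genes were called lower. After centring, 41.5% were, and the differences were -2.24 for Hlf, -1.37 for Dbp and -0.27 for Tef (limma adjusted p = 2.48e-07, 0.00163 and 0.0222), beside a median of -0.40. Hlf and Dbp thus lay below the median gene and Tef above it, a distance that centring cannot change. Peaks covered 186.5 bp of Hlf, 193 bp of Dbp and 802 bp of Tef on average in these libraries.

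In MPPs none of the 3 sums differed past the threshold from HSCs (16.2% of genes did), with log2 differences of -0.28 (SE 0.21) for Hlf, 0.08 (SE 0.26) for Dbp and 0.00035 (SE 0.097) for Tef. In CLPs none did either, against 29.2% of genes, at -0.18 (SE 0.30), 0.19 (SE 0.37) and -0.29 (SE 0.14), although the Tef value passed with libraries centred (-0.32, limma adjusted p = 0.0137) or without young HSC replicate 4 (-0.39, limma adjusted p = 0.0139). With a pseudocount of 5 the SE of the Hlf difference was 0.12 in MPPs and 0.17 in CLPs, still without a call (limma adjusted p = 0.153 and 0.527). Hlf -27.2 kb made up 41.5 to 49.6% of the Hlf sum in HSCs, and in CLPs from 21.1 to 57.1% with a median of 25.5%. Hlf had 6, 6, 2 and 5 called regions in the 4 CLP libraries, and aged CLP replicate 1, with 2, had the highest share. The mean of 4.75 regions against 3.25 in HSCs did not differ past the threshold (log2 difference 0.38, limma adjusted p = 0.244). Peaks of Hlf covered 1554 bp on average in CLPs and 1133.5 bp in HSCs, while the mean per called region was 8.14 and 12.7. When only peaks with a -log10 q-value of at least 10 were summed, the difference was -0.54 (limma adjusted p = 0.00655).

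**Figure D4:**
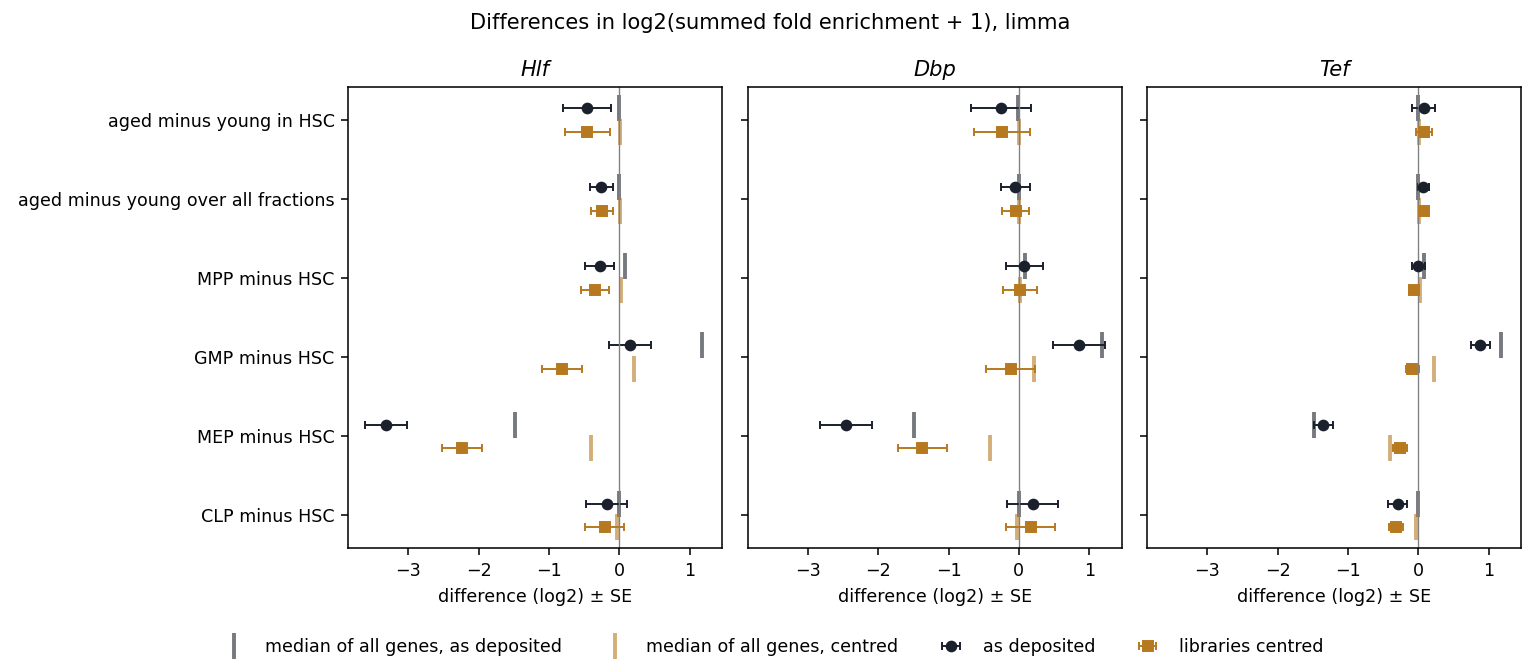
Differences in log2(summed fold enrichment + 1) with their SE (horizontal axes) for Hlf, Dbp and Tef in 6 comparisons, with values as deposited (circles) and after centring each library (squares), and ticks for the median of all genes in the same fit. In GMPs minus HSCs, Hlf lies at 0.15 and -0.82 under the 2 scalings, below the median of 1.18 and 0.21. In MEPs minus HSCs, Hlf lies at -3.32 and -2.24, below the medians of -1.49 and -0.40.

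Other genes of the circadian clock were taken from a list of 19, all of them tested. With age none passed, in HSCs or over all fractions (limma). In HSCs 2 had an unadjusted p below 0.05, Nfil3, the repressor at D-boxes (-0.33, limma adjusted p = 0.450), and Csnk1d, a kinase of the PER proteins (-2.25, limma adjusted p = 0.191), and over all fractions Nfil3 alone did (0.21, limma adjusted p = 0.305). The list had a median age difference of -0.01 in HSCs, as had all genes. In MPPs 3 were higher than in HSCs and 1 lower, beside 11.5% and 4.67% of all genes. With libraries centred 3 were higher and 3 lower there, beside 10.7% and 7.19%. In CLPs 2 were higher and 5 lower, beside 14.3% and 14.98% of all genes. With libraries centred 2 were higher and 6 lower there, beside 14.96% and 17.04%. Arntl, the partner of CLOCK, was 0.50 higher in MPPs and 2.21 higher in GMPs on the log2 scale (limma adjusted p = 0.00489 and 9.20e-11). Cry1, a repressor of CLOCK and BMAL1, fell by 0.63 in MPPs (limma adjusted p = 0.00133), was 1.85 higher in GMPs (6.35e-09) and fell by 0.57 in CLPs (0.0205). With libraries centred, Arntl was 1.24 and Cry1 0.89 higher in GMPs (limma adjusted p = 8.15e-08 and 0.000198). Nfil3 was 1.17 higher in GMPs (limma adjusted p = 7.52e-08), the shift of the median gene, and 0.21 with libraries centred (adjusted p = 0.153), and it fell by 0.49 in CLPs (0.00701).

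In GMPs 16 of the 19 clock genes were higher and none lower, beside 72.3% and 5.72% of all genes, with a list median of 1.18 beside 1.18 for all genes. After centring 4 were higher and 4 lower, beside 33.5% and 22.6%. In MEPs 1 was higher and 17 lower, beside 0.809% and 72.2% of all genes, and after centring 3 and 10, beside 19.4% and 41.5%, with list medians of -1.73 and -0.65 beside -1.49 and -0.40 for all genes. Rora, a nuclear receptor that activates Arntl, fell by 5.42 in MEPs (SE 0.36, limma adjusted p = 1.95e-12), and Nfil3 fell by 4.03 (SE 0.13, adjusted p = 5.64e-18). As deposited, the only one called higher in MEPs was Csnk1d, by 1.73 (limma adjusted p = 0.0201). With libraries centred it was 2.81 higher (limma adjusted p = 0.000603), and Per3 (0.35) and Nr1d2 (0.48) were also called higher.

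Genes whose sums followed most closely those of a member were ranked over the 16 group means by the Pearson correlation of log2(sum + 1), among 11348 genes with at least 3 regions. For Hlf they were Fads3 (0.981), Gm10037 (0.981), Braf (0.980), Robo3 (0.980) and Maml2 (0.979). For Dbp they were Slc22a16 (0.994), Cdh15 (0.992), Rcsd1 (0.991), Btg2 (0.991) and 1600014C23Rik (0.991), and for Tef Gm36079 (0.987), Cngb1 (0.986), Rap1b (0.986), Zdhhc2 (0.985) and Srebf2 (0.984). These points share the low libraries of MEPs and the high ones of GMPs, and the ranks depended on the measure. By Spearman correlation 0, 1 and 2 of the 5 genes remained among the 5 highest for Hlf, Dbp and Tef, and by the number of called regions none did. Among themselves, the members correlated at 0.932 (Hlf and Dbp), 0.835 (Hlf and Tef) and 0.888 (Dbp and Tef), values that stood at no more than the 91.2 percentile of all genes.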

How the data were processed

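ATAC-seq of 36 libraries was analysed from peak lists, the only files used. The authors aligned single reads of 60 bp to mm10 with Bowtie2, drew equal numbers of reads with SAMtools and called narrow peaks in each library with MACS2 2.2.6 at a q-value below 0.001, after selecting fragments of 240 to 360 bp. The lists deposited by the authors give each peak's fold enrichment (a ratio to the local background) and −log10 q-value, but no counts, so the reads behind each peak are unknown and the count model of the study could not be run. Regions were assigned with GENCODE mouse release 21. The members and gene lists were chosen with earlier results of these data known.

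Per region, the highest fold enrichment was taken. Per gene, log2(sum + 1) was fitted with limma 3.58.1 in R 4.3.3 over all 36 libraries with a mean per group, for 17302 genes with a region called in at least 2 libraries. Benjamini-Hochberg adjusted p-values used a threshold of 0.05. Single regions were fitted with limma where called in every library compared. Calls were tested with exact tests over all regions. "MPP" is the mean of MPP1 to MPP4. Described singly were regions at a TSS, those called in all libraries of 1 fraction and none of another of HSC, GMP, MEP and CLP, those with the largest age difference in HSCs and those past a threshold. The fit was tested on simulated data, with known log2 changes in aged HSCs given to genes with a peak in every library. A change of 0.5 was called in 14% of these genes, 1 in 80%, -1 in 84% and 2 in 100%. Of 145 genes called, 6 were false. An age difference near 0.5 in HSCs would thus mostly be missed. Alternatives were another pseudocount of 5, no gene filter, stricter peaks, centring each library on its median, counting regions, a limit of 100 kb, each library left out and the replicate number as a block.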

Additional observations from a re-analysis of the deposited data

How the results depend on the processing

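The values of the sums, regions and calls were recomputed with 1 choice changed at a time, which gave 1209 recomputed values, of which 1101 kept the direction and the side of the threshold, 17 lost a call, 9 gained one, 55 turned the direction and 27 moved a count by over 1.5 times. Of those that turned, 8 did so with libraries centred, which shifts all features of a library alike and leaves the distance from the median unchanged. Values here are log2 differences from limma, and the cause of a change was not tested unless stated. The age difference of Hlf -27.2 kb in HSCs kept its direction under every alternative within HSCs. With only peaks of a -log10 q-value of at least 10, the Tef sum differed by -0.039 with age in HSCs and -0.22 over all fractions. The Dbp sum then differed by -0.047 in MPPs and the Hlf sum by -0.54 in CLPs. With these peaks 0 member regions passed for HSCs against GMPs and 3 against MEPs (Hlf -27.2 kb, Hlf -7 bp and Dbp -81 bp). The share of all regions that passed with these peaks is not given here, so the counts describe the members only. With peaks covering at least 50% of a region, the age difference was -0.26 for Tef in HSCs and 0.038 for Hlf over all fractions, GMPs differed by 1.22 for Dbp (adjusted p = 0.0547) and 0.56 for Tef (0.312), and 1 member region, Hlf +8.7 kb, passed against GMPs. A pseudocount of 5 turned Tef in MPPs to -0.00077. With libraries centred, the Tef sum differed by -0.065 in MPPs and -0.32 in CLPs, and in GMPs the sums differed by -0.82 for Hlf, -0.11 for Dbp and -0.085 for Tef, whereas Hlf -27.2 kb differed by -0.25 in MPPs and -0.22 in GMPs, Dbp -81 bp by -0.012 and -0.10, and Tef +148 bp by -0.057 in GMPs. As the number of called regions, Tef in GMPs differed by 0.092 (adjusted p = 0.537) and Hlf in CLPs by 0.38. In HSCs with age, replicates 3 and 4 alone gave 0.32 for Hlf -7 bp and 0.15 for Tef +148 bp, and replicates 1 and 2 alone -0.11 for Tef -226 bp. Alternatives chosen after the data were seen gave 0.017 for Tef +148 bp over 7 fractions without MEPs, and 0.035 for both it and Dbp -81 bp without HSCs as well. With age as a stratum, 1 member region, Dbp +1.7 kb, passed for HSCs against GMPs and 0 against MEPs. With the replicate number as a block, Tef in MPPs differed by -0.10 and Dbp in GMPs by 0.84 (adjusted p = 0.0836). Same-numbered HSC libraries deviated together at r of 0.078, 0.094, 0.179 and -0.079 across regions, so the numbers do not pair the samples. Young replicate 3 deviated with aged replicates 3 and 4 (0.179 and 0.185) and against aged replicates 1 and 2 (-0.195 and -0.167). The other young replicates lay between -0.085 and 0.098 with every aged one. The main fits with age in HSCs do not model this structure. The block moved the count of genes called from 231 to 142 with age in HSCs and from 2801 to 1251 in MPPs.

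Without 1 library at a time, the age difference ranged from -0.11 to 0.18 for the Tef sum in HSCs, and over all fractions from -0.43 to -0.088 for Hlf and from -0.21 to 0.10 for Dbp. The sums ranged from -0.092 to 0.056 for Tef in MPPs, from 0.73 to 0.97 for Dbp in GMPs, and in CLPs from -0.40 to 0.033 for Hlf, from -0.11 to 0.49 for Dbp and from -0.40 to -0.19 for Tef. At single regions the ranges were -0.31 to 0.031 for Hlf -7 bp, -0.13 to 0.08 for Tef +148 bp and -0.0063 to 0.34 for Tef -226 bp with age in HSCs. They were -0.10 to 0.013 for Tef +148 bp and -0.12 to 0.054 for Tef -226 bp in MPPs, 0.19 to 0.51 for Hlf -27.2 kb and -0.48 to -0.28 for Hlf -7 bp in GMPs, and -0.67 to -0.49 for Hlf -7 bp, -0.044 to 0.16 for Tef -226 bp and -0.32 to 0.14 for Dbp -81 bp in CLPs. Member regions past the exact test numbered 1 to 2 against GMPs, 0 to 1 against MEPs and 0 to 1 against CLPs. The count of genes called with age was 127 to 318 in HSCs and 225 to 484 over all fractions, where stricter peaks gave 400 and a pseudocount of 5 gave 113, beside 253. The count of regions called with age in HSCs, 2 of 17340, was 0 to 3 without 1 library, 0 on within-library percentiles, 5 with stricter peaks, 8 with libraries centred and 126 in replicates 3 and 4 alone. Read depth behind the peaks is not in the peak lists used here, so a missing call gives no upper limit, and 2 libraries per age outside HSCs leave their age differences as descriptions.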
